A study of Rattus norvegicus with 11 samples.

Results

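The genes of glucose uptake and glycolysis described here are 7 Ensembl rat gene IDs chosen by name: Slc2a1, Slc2a4, Hk1, Hk2, Pfkfb3, Gapdh and Ldha. Of these, 5 had a row in the table of 37550 features, and all 5 passed the filter on low counts, which left 15099 features for testing. The IDs of Slc2a4 (ENSRNOG00000017226) and Gapdh (ENSRNOG00000018630) were absent from the table and were not replaced by other features, so neither gene, nor the balance of Slc2a1 to Slc2a4, was analysed here. RNA had been taken from right ventricles of rats of the Sprague Dawley strain, given vehicle (6 libraries, replicates 1 to 6) or monocrotaline (5 libraries, replicates 1, 2, 3, 4 and 6), a plant toxin used to raise pressure in the lung arteries, against which the right ventricle then has to pump. For the dose, the time after injection and the age and sex of the rats, the sources used here give nothing. The right ventricle had been cut free of the left ventricle and vessels, but because the files pair no ID with a gene name, the tissue could not be checked against its defining markers.

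Glucose enters heart cells through facilitative transporters, of which GLUT1 (Slc2a1) serves basal uptake and GLUT4 (Slc2a4) is brought to the surface by insulin and contraction. Hexokinases then trap it as glucose 6-phosphate: HK1 is the widely expressed form and HK2 the form typical of insulin-sensitive muscle. Further down, PFKFB3 makes the sugar bisphosphate that activates phosphofructokinase, GAPDH carries out the oxidative step, and lactate dehydrogenase A (Ldha) reduces pyruvate to lactate. A shift of the loaded right ventricle towards glycolysis has been widely described, and the comparison asks which of these transcripts differed between the groups.

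Total counts ran from 9581924 to 14438355 per library. The scaling factors (TMM, trimmed mean of M values) lay between 0.912 and 0.966 with vehicle and between 0.983 and 1.27 with monocrotaline, without overlap, so a level relative to depth depends on whether they are applied. Levels below are counts per 1000000 reads (CPM) with TMM scaling unless library totals are named. They are not divided by transcript length, so they are compared between libraries for 1 gene and not between genes. Reads reached more than 25000 features in 3 libraries (vehicle replicates 5 and 6, monocrotaline replicate 3) and fewer in the other 8, the libraries of lower detection, for which values alone are given where they bear on a result.

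A difference with monocrotaline was called for 1 of the 5 genes, which does not show that the others were unchanged. Hk1 fell by about 30.0%, and Slc2a1, Hk2, Pfkfb3 and Ldha did not pass the test, although all 4 of their fold changes were positive. By edgeR's quasi-likelihood test at a Benjamini-Hochberg adjusted p of 0.05, the genes counted 0 higher and 1 lower, where 12.7% of all tested features were higher and 11.1% lower. The 1 of 5 is near the 23.8% called over all features in either direction. The median log2 fold change of the 5 genes was 0.23, against −0.01 over all tested features. Their median absolute log2 fold change was 0.37, against 0.29.

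**Figure D1:**
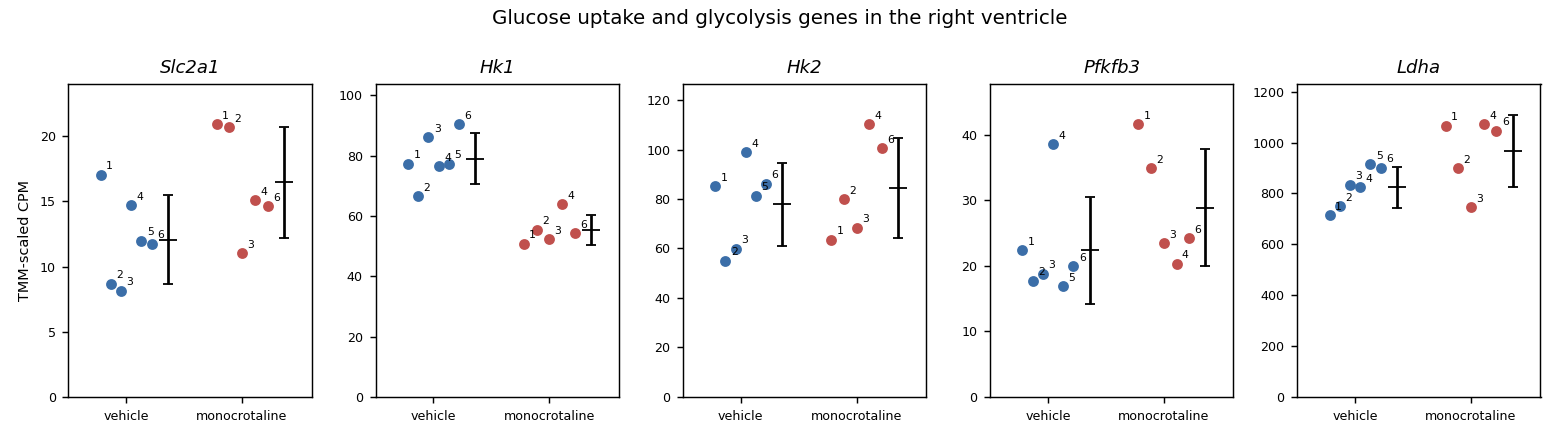
TMM-scaled CPM (vertical axes from 0) of the 5 genes in each library, with the replicate number beside each point. The bar to the right of each group is the mean ± SD (n = 6 vehicle, n = 5 monocrotaline). Hk1 is the gene whose groups do not overlap, with monocrotaline at 50.8 to 63.9 CPM and vehicle at 66.5 to 90.4 CPM.

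Glucose transport was represented by Slc2a1 (ENSRNOG00000007284), the basal transporter. Its vehicle levels were 17.0, 8.69, 8.14, 14.7, 11.996 and 11.7 CPM in replicates 1 to 6. Its monocrotaline levels were 20.9, 20.7, 11.04, 15.1 and 14.6 CPM in replicates 1, 2, 3, 4 and 6. Monocrotaline replicates 1 and 2 stood above every vehicle library, the other 3 lay inside the vehicle range, and the groups overlapped. The means were 12.1 ± 3.43 CPM in vehicle libraries (SD, n = 6) and 16.5 ± 4.26 CPM with monocrotaline (SD, n = 5). The log2 fold change was 0.44 with SE 0.22 and a 95% interval from −0.02 to 0.91, which did not pass the test (edgeR, adjusted p = 0.151). It was the least abundant of the 5 in reads, with 72 to 299 per library, and counting error alone was 11.8% at the lowest count. Scaled by library totals alone, Slc2a1 stood at 7.41 to 15.7 CPM with vehicle and 13.9 to 22.4 CPM with monocrotaline, its log2 fold change was 0.65, and it was called higher (edgeR, adjusted p = 0.0319). That scaling called 3541 of the 15099 tested features higher, against 1917 with TMM. In bulk tissue, a change in the share of cells that express a gene and a change in RNA per cell cannot be told apart, for this and every gene below.

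Glucose phosphorylation was represented by both hexokinases, and they differed in what they showed. Hk1 (ENSRNOG00000000593) stood at 77.3, 66.5, 86.2, 76.6, 77.4 and 90.4 CPM in vehicle replicates 1 to 6. With monocrotaline it stood at 50.8, 55.5, 52.3, 63.9 and 54.2 CPM in replicates 1, 2, 3, 4 and 6. The groups did not overlap, all monocrotaline levels being the lower ones, and the narrowest gap was between monocrotaline replicate 4 and vehicle replicate 2. Of all tested features, 4.93% lay wholly below vehicle in the same way. The means were 79.1 ± 8.34 CPM in vehicle libraries (SD, n = 6) and 55.4 ± 5.12 CPM with monocrotaline (SD, n = 5). Hk1 fell by 0.51 on the log2 scale with SE 0.10 and a 95% interval from −0.73 to −0.30 (edgeR, adjusted p = 0.0039), lower in 5 of 5 monocrotaline libraries. The fall was small among called features: the median log2 fold change of all features called lower was −0.72. Scaled by library totals alone it moved to −0.31, still called (edgeR, adjusted p = 0.0328), but the groups then overlapped, with 63.5 to 82.8 CPM in vehicle and 54.4 to 65.7 CPM in monocrotaline. In the 8 libraries of lower detection it was −0.45 (edgeR, adjusted p = 0.0415).

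Hk2 (ENSRNOG00000006116) differed more among the libraries of a group than between the groups. It stood at 85.2, 55.0, 59.9, 99.0, 81.4 and 86.2 CPM in vehicle replicates 1 to 6, and at 63.6, 80.0, 68.5, 110.1 and 100.5 CPM in monocrotaline replicates 1, 2, 3, 4 and 6. Vehicle replicates 2 and 3 were the lowest of all 11 libraries and monocrotaline replicates 4 and 6 the highest, with the rest interleaved. The means were 77.8 ± 16.9 CPM in vehicle libraries (SD, n = 6) and 84.6 ± 20.2 CPM with monocrotaline (SD, n = 5). The log2 fold change of 0.12 had SE 0.18 and a 95% interval from −0.27 to 0.51, and did not pass the test (edgeR, adjusted p = 0.677). The interval spans folds of 0.83 to 1.42.

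The balance of the hexokinases moved towards Hk2, although Hk2 itself did not pass the test above. The balance was measured as the log2 ratio of Hk1 to Hk2 reads within a library, in which the scaling factor cancels, and gene length cancels from the difference between groups. Hk1 reads per Hk2 read were 0.908, 1.21, 1.44, 0.774, 0.951 and 1.05 in vehicle replicates 1 to 6, and 0.798, 0.694, 0.764, 0.581 and 0.539 in monocrotaline replicates 1, 2, 3, 4 and 6. All 5 monocrotaline libraries lay below 5 of the vehicle libraries, and only vehicle replicate 4 reached into their range. The mean log2 ratio was 0.05 ± 0.32 for vehicle (SD, n = 6) and −0.58 ± 0.25 for monocrotaline (SD, n = 5), a difference of −0.63, or 0.646-fold. By an exact two-sided permutation test with 462 arrangements the p was 0.00649. This was the 1 balance that could be tested, so no adjustment was made. In the 8 libraries of lower detection the difference was −0.70 with an exact permutation p of 0.0571. The ratio itself is in reads, not in transcripts, and does not say which hexokinase was the more abundant. Its test uses the same Hk1 reads as the test of Hk1 above and is not separate support. Nor was the difference particular to this pair: Hk1 relative to Slc2a1, Pfkfb3 and Ldha differed by −0.97, −0.89 and −0.73.

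The RefSeq sequence tables (GRCr8) give 2 start sites for Hk1 and 1 for Hk2. The 250 bases before each are shown because Hk1 is the gene that fell and Hk2 the one it was set against. Gene counts do not tell which Hk1 start was used. Capitals mark ACGTG on either strand, the letters at the core of the hypoxia response element, which is well known upstream of glycolytic genes. The Hk1 window at chr20:30874815-30875064 (minus strand) is the outer start, the Hk1 window at chr20:30842073-30842322 (minus strand) lies inside the gene's span, and the Hk2 window is chr4:116841276-116841525 (minus strand).
Hk1 outer start: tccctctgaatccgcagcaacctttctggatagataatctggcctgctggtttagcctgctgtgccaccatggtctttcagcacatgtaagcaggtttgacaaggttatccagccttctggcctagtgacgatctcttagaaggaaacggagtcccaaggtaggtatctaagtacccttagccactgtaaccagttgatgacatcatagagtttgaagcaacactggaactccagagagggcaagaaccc
Hk1 inner start: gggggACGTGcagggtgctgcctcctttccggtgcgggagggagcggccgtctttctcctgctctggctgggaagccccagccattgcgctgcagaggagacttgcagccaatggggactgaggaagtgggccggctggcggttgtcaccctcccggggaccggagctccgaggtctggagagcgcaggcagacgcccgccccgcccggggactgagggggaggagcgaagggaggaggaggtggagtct
Hk2: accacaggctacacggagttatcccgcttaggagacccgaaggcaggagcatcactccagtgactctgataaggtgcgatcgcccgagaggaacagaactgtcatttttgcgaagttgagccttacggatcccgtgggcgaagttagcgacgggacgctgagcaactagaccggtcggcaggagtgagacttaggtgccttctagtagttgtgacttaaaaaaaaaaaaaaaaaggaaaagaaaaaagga
The inner Hk1 window held 1 ACGTG, with its first base 245 bases before the start, and a GC content of 70.0%. The outer Hk1 window and the Hk2 window held 0, with GC contents of 48.8% and 49.6%. Over all 33469 windows of this length, 16.6% held ACGTG on either strand, and the median GC content was 51.2%. A match is a string of letters and not a measured binding site.

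Control of glycolytic flux was represented by Pfkfb3 (ENSRNOG00000018911), whose product raises the activator of phosphofructokinase. It stood at 22.4, 17.7, 18.8, 38.6, 16.9 and 19.9 CPM in vehicle replicates 1 to 6 and at 41.5, 34.8, 23.4, 20.3 and 24.2 CPM in monocrotaline replicates 1, 2, 3, 4 and 6. Vehicle replicate 4 stood far above the other vehicle libraries, at a level that only monocrotaline replicate 1 exceeded, and all 5 monocrotaline libraries lay above the vehicle median of 19.4 CPM. The means were 22.4 ± 8.16 CPM in vehicle libraries (SD, n = 6) and 28.9 ± 8.95 CPM with monocrotaline (SD, n = 5). The log2 fold change was 0.37 with SE 0.24 and a 95% interval from −0.15 to 0.88, and did not pass the test (edgeR, adjusted p = 0.297). Single libraries moved it. Without vehicle replicate 4 it was 0.59 and called higher (edgeR, adjusted p = 0.0454), and without monocrotaline replicate 1 it was 0.20 (edgeR, adjusted p = 0.608).

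Lactate production was represented by Ldha (ENSRNOG00000013009), the lactate dehydrogenase A gene. Its vehicle levels were 714, 751, 833, 824, 916 and 901 CPM in replicates 1 to 6. Its monocrotaline levels were 1067, 900.1, 745, 1071 and 1046 CPM in replicates 1, 2, 3, 4 and 6. Monocrotaline replicates 1, 4 and 6 stood above every vehicle library and replicates 2 and 3 inside the vehicle range. The means were 823 ± 79.97 CPM in vehicle libraries (SD, n = 6) and 966 ± 142 CPM with monocrotaline (SD, n = 5). The log2 fold change was 0.23 with SE 0.14 and a 95% interval from −0.07 to 0.53, and did not pass the test (edgeR, adjusted p = 0.245). Its counts of 6998 to 13080 per library make counting error small, at most 1.20%, so the spread was between libraries.

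Whether Ldha was called depended on the scaling. By library totals alone it stood at 655 to 879 CPM with vehicle and at 935 to 1143 CPM with monocrotaline, with no overlap, and its log2 fold change was 0.43 (edgeR, adjusted p = 0.0164). By library totals 3541 of the 15099 tested features were called higher, and the share of features without overlap was not computed. Under that scaling the median log2 fold change of all tested features was 0.21, against −0.01 with TMM, so Ldha exceeded the median feature by a similar amount under both. Monocrotaline replicate 3 was the lowest of its group for Ldha with TMM and also by library totals. It had the highest TMM factor of the 11 libraries, 1.27, and is one of the libraries of higher detection. With TMM and without this library, Ldha was 0.32 (edgeR, adjusted p = 0.0976). In the 8 libraries of lower detection it was 0.39 (edgeR, adjusted p = 0.119), and it was not called in either. Relative log expression and upper quartile factors gave log2 fold changes of 0.24 and 0.24 and no call (edgeR, adjusted p = 0.229 and 0.207). Copies of Ldha elsewhere in the genome could share its reads, which was not tested.

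**Figure D2:**
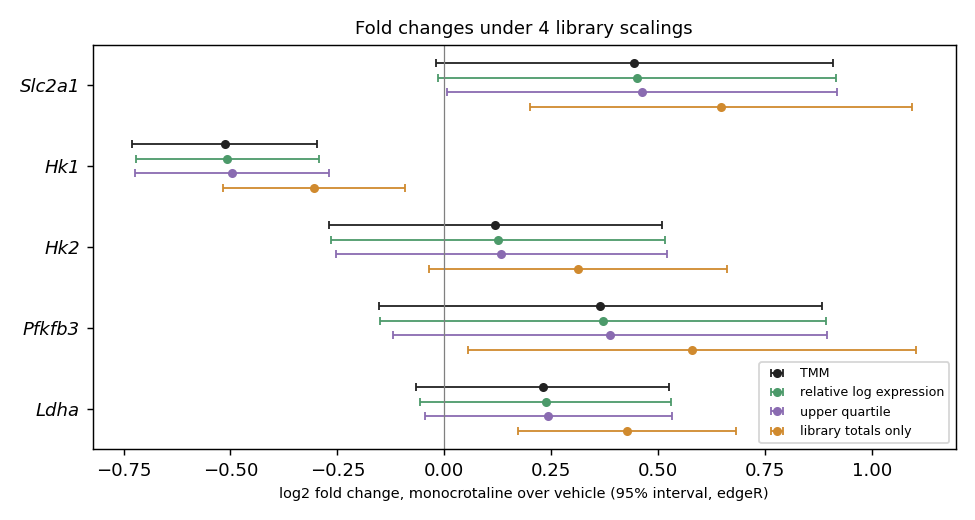
Log2 fold change of monocrotaline over vehicle (horizontal axis) for each gene under 4 library scalings, with 95% intervals from edgeR (n = 6 vehicle, n = 5 monocrotaline). Hk1 lies below 0 under all 4. Every gene moves to the right with library totals only, Hk1 from −0.51 to −0.31, and there Slc2a1 and Ldha were called higher.

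The window before the Ldha start is shown because it held the most ACGTG matches of the 5 genes. It lies at chr1:106507842-106508091 (plus strand, GRCr8), with ACGTG on either strand in capitals.
Ldha: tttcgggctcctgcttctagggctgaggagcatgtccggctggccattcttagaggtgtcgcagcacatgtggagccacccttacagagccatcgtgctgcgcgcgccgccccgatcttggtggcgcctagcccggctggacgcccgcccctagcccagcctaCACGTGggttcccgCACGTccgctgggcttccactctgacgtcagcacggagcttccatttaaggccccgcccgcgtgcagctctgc
It held 3 matches, starting 87, 86 and 73 bases before the start site. The first 2 overlap in 1 palindrome, CACGTG, the E-box. Pfkfb3 likewise held 1 CACGTG, which counts as 2 overlapping ACGTG matches, and Slc2a1 held 1 ACGTG, 51 bases before its start. In all, 4 of the 6 windows of these genes held ACGTG, which 16.6% of all windows held. CACGTG was held by 2, against 5.59% of all windows. GC contents were 66.4% for Ldha, 63.6% for Pfkfb3 and 68.4% for Slc2a1, all above the median window. The inner Hk1 window, which also held ACGTG, had 70.0%, while the windows without ACGTG had 48.8% and 49.6%. The shares over all windows are not matched for GC content, so they are not a like comparison. The genes were chosen by name, and no factor's binding was measured.

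Ratios between genes within a library show the set without any scaling. Of the 10 pairs among the 5 genes, Hk1 to Ldha was the 1 pair whose groups did not overlap. Its log2 read ratio averaged −3.38 ± 0.14 in vehicle libraries (SD, n = 6) and −4.12 ± 0.22 with monocrotaline (SD, n = 5), a difference of −0.73. The lowest vehicle value was −3.56 and the highest monocrotaline value −3.83. Hk1 alone already separated the groups with TMM scaling, and the share of all feature pairs that do not overlap was not computed. Hk1 relative to Slc2a1 differed by −0.97, with 4 of 5 monocrotaline libraries below every vehicle library and monocrotaline replicate 3 inside the vehicle range. Hk1 relative to Pfkfb3 differed by −0.89, with 2 of 5 below. The 6 ratios without Hk1 differed by between −0.34 and 0.23, with overlapping groups in each. Only the Hk1 to Hk2 balance carries a test, and it too was chosen with earlier results of these data known. The other ratios were chosen after the levels were seen.

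**Figure D3:**
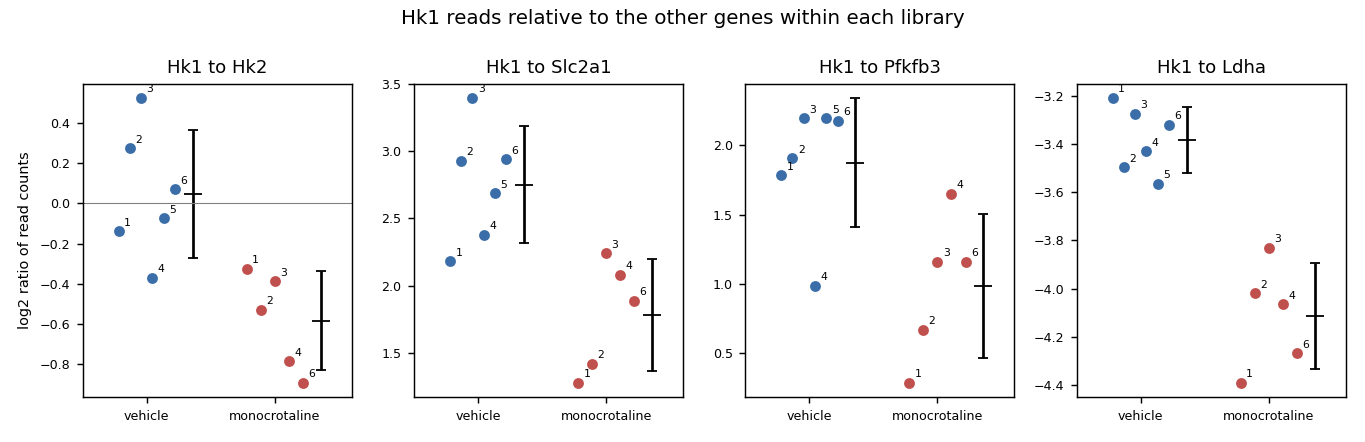
Log2 ratio of Hk1 reads to the reads of Hk2, Slc2a1, Pfkfb3 and Ldha in each library (vertical axes differ and do not start at 0), with replicate numbers and the mean ± SD of each group (n = 6 vehicle, n = 5 monocrotaline). All 4 group means are lower with monocrotaline, and the Hk1 to Ldha groups are separate, with vehicle at −3.56 or above and monocrotaline at −3.83 or below. The 4 ratios share the Hk1 reads, so they are not separate results. All but Hk1 to Hk2 were chosen after the levels were seen.

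Within the groups, the genes varied to different degrees. The SD of log2 CPM around the group means was 0.14 for Hk1, 0.18 for Ldha, 0.34 for Hk2, 0.40 for Slc2a1 and 0.43 for Pfkfb3, against a median of 0.29 over all tested features. Hk1 was thus among the steadier transcripts, with 8.27% of tested features at or below its spread. This comparison was not matched for abundance. In reads, Slc2a1, Pfkfb3, Hk1, Hk2 and Ldha stood at percentiles 47.7, 62.4, 84.3, 87.0 and 99.3 of the tested features. Over the 11 libraries, with each group's mean removed, the genes most alike were Slc2a1 and Pfkfb3 (Pearson r = 0.67, exact permutation within groups p = 0.0343, adjusted over 10 pairs 0.343). Their Spearman rho was 0.61 (exact permutation p = 0.0698, adjusted 0.438). Without the 2 libraries farthest from the median of Slc2a1 the r was 0.75, and over the 8 libraries with lower detection it was 0.70. The other 9 pairs had r between −0.26 and 0.53, and 0 of the 10 passed after adjustment. These values pool both groups and need not hold in each. Slc2a1 and Pfkfb3 had r = 0.57 in vehicle and 0.81 in monocrotaline libraries, but Hk2 and Pfkfb3 had 0.65 and −0.69. Differences between groups in r were not tested. Hk1 was most like Hk2 among the 5, with r = 0.53 (exact permutation p = 0.118, adjusted 0.567), rho = 0.55 (exact permutation p = 0.109, adjusted 0.438), r = 0.31 without the 2 libraries farthest from the median of Hk1 and r = 0.50 in the 8.

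Among 11137 other Ensembl IDs, those whose levels followed Hk1 most closely in this sense were ENSRNOG00000016780 (r = 0.93) and ENSRNOG00000011618 (r = 0.93), over 11 libraries. They are the highest of many values and are given as a description. The second fell with Hk1, by 0.67 on the log2 scale (edgeR, adjusted p = 0.00549), and the first had a log2 fold change of −0.00 (edgeR, adjusted p = 0.992), so likeness within groups did not carry over to the difference between them for both.

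In the authors' deposited table Hk1 has a log2 fold change of −0.51 and an FDR of 3.05e-04. In the authors' deposited table the FDR is 0.190 for Slc2a1, 0.761 for Hk2, 0.361 for Pfkfb3 and 0.270 for Ldha.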

How the data were processed

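RNA of the right ventricle was measured in 6 vehicle and 5 monocrotaline libraries. Per the labels' protocols, RNA was depleted of ribosomal RNA and made into stranded libraries. Named in the submitters' processing notes are HISAT2, StringTie, cutadapt, FastQC and bcl2fastq. For versions, genome build, annotation and strand setting: not given in the sources used here. Counts deposited by the authors were whole numbers per feature with no normalization, for 29682 Ensembl IDs and 7868 loci assembled from the reads. Reads of a gene that fall in an assembled locus are not in its own row, which was not examined. The authors deposited a second table of log2 fold changes, log2 CPM, p-values and FDR, with no test named in the sources used. Its fold changes were on the log2 scale of monocrotaline over vehicle, with a slope of 0.999 on those from the counts. Of the columns of counts, 0 belonged to other samples.

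All features were fitted with edgeR 4.0.16 in R 4.3.3 (quasi-likelihood, robust, TMM, filterByExpr with minimum count 10 and minimum total 15, no covariate), and p-values were adjusted over the 15099 tested. Each standard error was the size of the log2 fold change divided by the root of F. The fit was also run on simulated counts with 200 features changed, and no result here rests on it. Both groups were drawn from a shared profile, without the difference in scaling factors or in detection between libraries. Log2 CPM for spread and likeness used a prior count of 2, and the hexokinase ratio added 0.5 to each count. The 55 pairs of libraries were compared for copies, and chi-square per degree of freedom was never under 15.5. Separate animals are not stated per library, so the p-values reflect only how these libraries spread, which may be technical.

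Alternatives were DESeq2 1.42.0, limma-voom (limma 3.58.1), relative log expression, upper quartile and no factors, TMM leaving out the 20 most abundant features, a stricter filter (a mean count of 50 and 1 CPM in 5 libraries) and none, each library left out, the 8 libraries of lower detection, the detection class as a covariate and the replicate number as a block. For the hexokinase ratio they were 10 added reads and medians. Genes were named by the rule that every listed ID in the table is described. The genes, lists and tests were chosen with earlier results of these data known. Symbols are those given with the IDs. The RefSeq tables hold no Ensembl ID, so lists of other pathway genes and cell type markers were not analysed here. Promoter windows were matched by symbol for 5 of 5 genes.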

Additional observations from a re-analysis of the deposited data

Results flagged for a closer look

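A level was marked when it stood apart from the nearest in its group by more than 0.710 of the group's range with 5 libraries or 0.625 with 6, which chance does in about 1 in 20 groups. Of 12 groups checked, for 5 genes and the Hk1 to Hk2 ratio, 1 was marked: Pfkfb3 in vehicle replicate 4, at 38.6 CPM, against 22.4 CPM in the next vehicle library, a gap of 0.744 of the range. The same library had the highest Hk2 of the vehicle group, 98.98 CPM, and the lowest Hk1 to Hk2 ratio of that group, neither of which was marked.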

How the results depend on the processing

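All alternatives here were fixed with earlier results of these data known. Hk1 stayed lower and called in all 22 distinct alternative fits, with log2 fold changes of −0.56 to −0.45 when each library was left out. With no normalization factor, Slc2a1 was 0.65 and Ldha 0.43, both called, so 2 of the genes were higher, and over all features 3541 were higher and 986 lower with a median log2 fold change of 0.21. With no filter, 971 features were lower and the median was −0.17. The 8 libraries of lower detection gave 1087 higher and 653 lower features. Leaving out each library gave log2 fold changes of 0.35 to 0.57 for Slc2a1, 0.03 to 0.21 for Hk2, 0.20 to 0.59 for Pfkfb3 and 0.19 to 0.32 for Ldha, with 0 to 1 of the genes higher and 1 lower, and 1447 to 2501 features higher and 1123 to 2330 lower. When each library was left out, the hexokinase difference ranged from −0.71 to −0.53 (exact permutation p = 0.00794 to 0.0190). It was −0.53 between medians (exact permutation p = 0.0260) and −0.62 with 10 reads added (exact permutation p = 0.00649). It was −0.70 in the 8 libraries (exact permutation p = 0.0571) and −0.65 with the replicate block (exact sign-flip permutation p = 0.0625, the smallest that 5 pairs allow), both with fewer samples. No gene's fold change and no value of the hexokinase difference changed direction. The cause of the other shifts was not tested.

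Deviations from the group means correlated between libraries of the same number at −0.21 to 0.16. Libraries of unlike number were not compared, so these values do not decide whether libraries were paired. The lowest values, −0.21 for replicate 3 and −0.20 for replicate 6, each join a library of higher detection with a library of lower detection. A replicate block over the 10 libraries with a shared number gave 1348 higher and 1231 lower features, against 1731 and 1441 without the block (the fit without vehicle replicate 5), and Hk1 was −0.52 (edgeR, adjusted p = 0.0242). Alternatives for the balance of Slc2a1 to Slc2a4 were not run, since 1 of its IDs was absent. Depth limits Slc2a1 most, with 72 reads in its lowest library.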
